A study of Homo sapiens with 4 samples.

Results

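RAB39B and the genes of the C9orf72-SMCR8-WDR41 complex were followed by RNA sequencing in cultured lung squamous carcinoma cells at 30 Gy and at 0 Gy of radiation. The set holds 5 genes, taken by name from a deposited table of 58735: the small GTPase RAB39B, its relative RAB39A, and the complex members C9orf72, SMCR8 and WDR41. The 30 Gy group and the 0 Gy group had 2 libraries each, numbered 1 and 2 in the library names. The series title places RAB39B downstream of the keratin KRT6A in radiotherapy resistance and autophagy, and the design text names SK-MES-1, an established line of squamous lung carcinoma, and a resistant derivative, SK-MES-1-RR. Which libraries came from which line, how the 30 Gy were given and when RNA was taken are not stated in the labels, so dose, cell line and selection cannot be told apart here. No label says that replicates were separate cultures, and p-values therefore measure only the spread between these libraries, which may be technical.

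RAB GTPases are membrane switches that are active when bound to GTP and that direct vesicle traffic, and guanine nucleotide exchange factors load them with GTP. RAB39B is known best from neurons, where its loss causes X-linked intellectual disability and early-onset parkinsonism. C9orf72 and SMCR8 are both DENN-domain proteins, the fold of many RAB exchange factors. They form a stable complex with the WD-repeat protein WDR41, and cell studies have linked that complex to RAB39B, RAB8A, lysosomes and the start of autophagy. A repeat expansion within C9orf72 is a frequent inherited cause of amyotrophic lateral sclerosis and frontotemporal dementia.

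RAB39B fell at 30 Gy, whereas no change of C9orf72, SMCR8 or WDR41 passed the test. Expression is given in the FPKM that the authors deposited, fragment counts divided by gene length and by sequencing depth. Of the 5 genes, 4 reached an FPKM of 1 in at least 2 libraries and entered the test, and RAB39A did not. RAB39B reached that level in 3 of the 4 libraries, all but replicate 2 at 30 Gy. Of these 4, RAB39B alone passed an adjusted p under 0.05, against 9.06% of all tested genes that fell and 10.8% that rose (19.8% in either direction). A single gene called among 4 is close to the share over the whole table. For RAB39B and WDR41, 2 of the 4, the libraries of each dose stood apart without overlap, against 65.2% of all tested genes.

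RAB39B (ENSG00000155961, X:155258241-155264589, minus strand, hg38) had 1.16 and 0.968 FPKM in the 30 Gy libraries, against 2.39 and 2.82 FPKM in the 0 Gy libraries. Both 30 Gy libraries were low and both 0 Gy libraries were high, with no overlap. The reads behind these levels numbered 65 and 54 at 30 Gy and 146 and 168 at 0 Gy. The exact 95% Poisson intervals, which cover counting error only, ran from 0.897 to 1.48 FPKM and from 0.728 to 1.26 FPKM at 30 Gy, and from 2.02 to 2.82 FPKM and from 2.41 to 3.28 FPKM at 0 Gy. No interval of one dose reached an interval of the other. In bulk RNA, fewer cells with the transcript and less transcript per cell cannot be told apart.

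**Figure D1:**
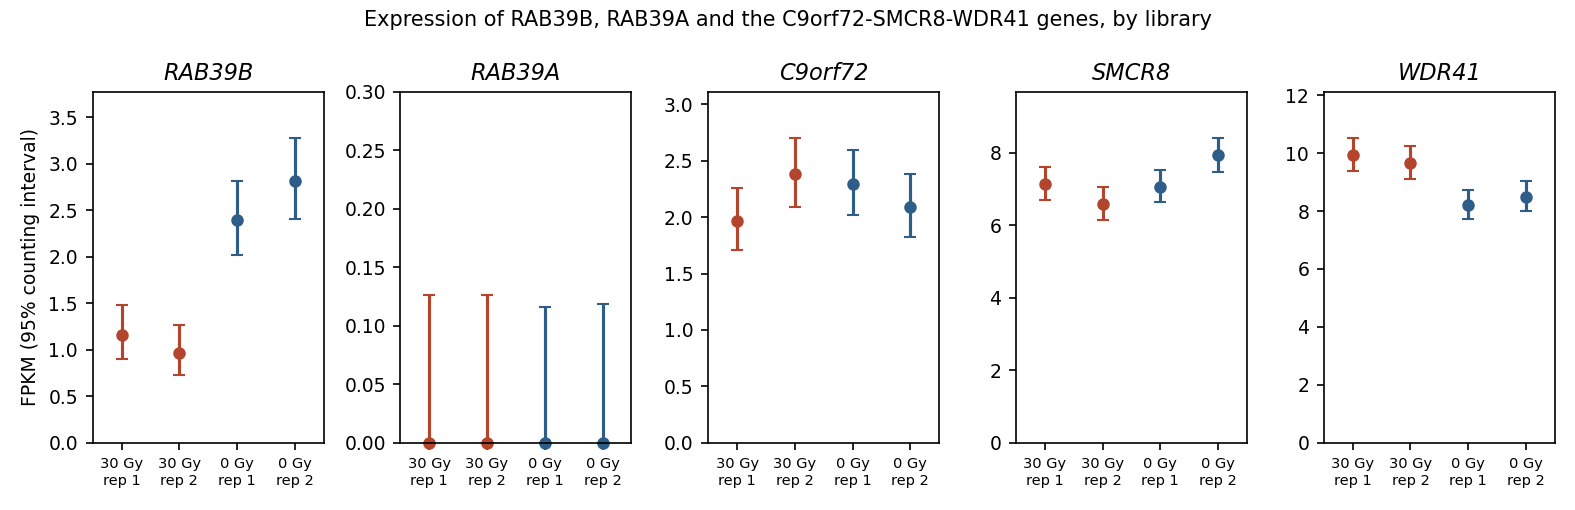
FPKM of the 5 genes in each library (points; 30 Gy red, 0 Gy blue) with exact 95% Poisson intervals of the reads as bars. Each panel has its own axis from 0. RAB39B lies between 0.968 and 1.16 at 30 Gy and between 2.39 and 2.82 at 0 Gy, RAB39A is at 0 throughout, and the 30 Gy and 0 Gy points interleave for C9orf72 and SMCR8.

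RAB39B averaged 1.07 ± 0.137 FPKM at 30 Gy and 2.61 ± 0.301 FPKM at 0 Gy (SD, n = 2 each), 2.45-fold lower in the 30 Gy libraries by the ratio of means. The log2(FPKM + 1) difference, 30 Gy minus 0 Gy, was -0.80 ± 0.13 (SE, 95% interval -1.14 to -0.47, limma adjusted p = 0.0190 over 13379 tested genes). This scale understates the change of a gene with so low a level. With a pseudocount of 0.1 the difference was -1.22 (adjusted p = 0.0202), and limma's voom on the reads recovered from FPKM gave -1.30 (adjusted p = 0.00105). Of all tested genes, 326 (2.44%) had a more negative log2 difference than RAB39B. Within each library, the RAB39B level exceeded that of 7.65% and 4.49% of the tested genes at 30 Gy, and of 24.1% and 28.3% at 0 Gy.

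The call on RAB39B by limma on the same genes was lost with any library left out, at a difference of much the same size. Without a 0 Gy library this loss held for every gene called in the main fit, so it is not particular to RAB39B. Leaving out one of the 30 Gy libraries gave a limma adjusted p of 0.0583 (replicate 1) or 0.0690 (replicate 2), and leaving out one of the 0 Gy libraries gave 0.108 (replicate 1) or 0.129 (replicate 2), while the difference stayed between -0.89 and -0.72. By voom on the recovered reads the call held when each of these was left out (adjusted p = 0.00379, 0.00942, 0.0318 and 0.0496, in the same order). In all such fits 1 dose has a single library, which is assumed to vary like those of the other dose. When all 30687 genes above 0 were tested, the adjusted p was 0.0919.

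**Figure D2:**
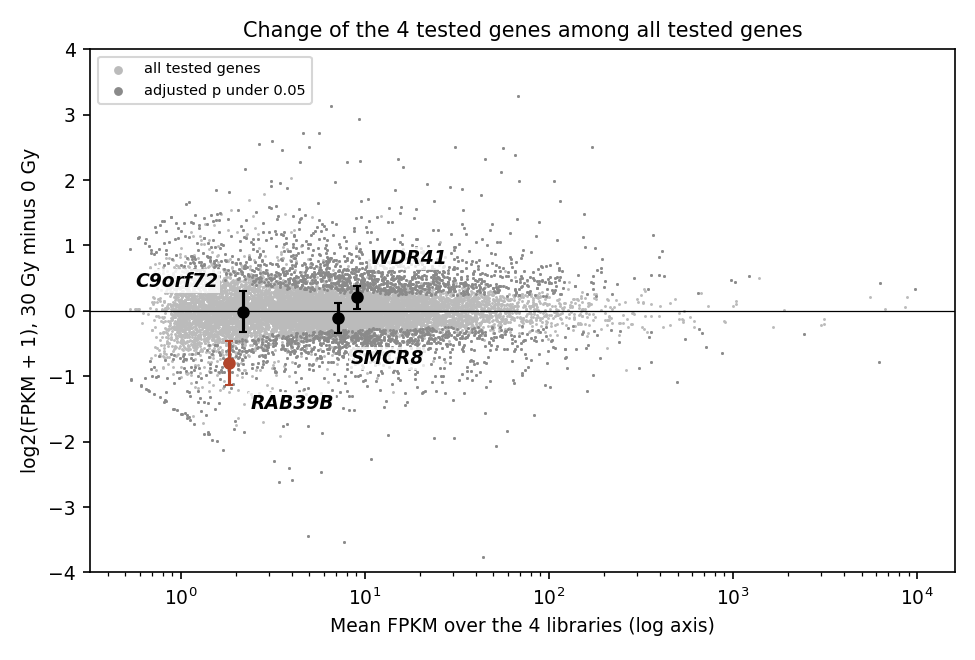
Difference in log2(FPKM + 1), 30 Gy minus 0 Gy, against mean FPKM (log axis) for all 13379 tested genes (light grey; darker grey at an adjusted p under 0.05) and for the 4 tested members with 95% intervals. RAB39B (red), at -0.80, lies below the other 3 members, whose differences run from -0.11 to 0.21.

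RAB39A (ENSG00000179331, 11:107928503-107963482, plus strand), the closest relative of RAB39B and a GTPase of endosome and phagosome traffic, had 0 reads in every library. The floor of 3 reads, a one-sided limit, corresponds to 0.103 FPKM in each 30 Gy library and to 0.0942 and 0.0964 FPKM in the 0 Gy libraries, and the exact two-sided 95% intervals in the plot of the 5 genes reach 0.126 and 0.127 FPKM at 30 Gy and 0.116 and 0.119 FPKM at 0 Gy. Any difference in RAB39A between the doses was not detectable at this depth. In GENCODE 29, each has 1 transcript of 2 exons, and their coding sequences, 642 bases in RAB39B and 654 bases in RAB39A, were identical at 73.8% of 642 aligned bases. The longest identical run between the whole transcripts was 17 bases, and the read length is not given in the sources used here. With 0 reads assigned to RAB39A, no split of reads between the paralogs was visible.

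Promoter windows are shown for the paralog without reads, RAB39A, and for a complex member that was expressed, SMCR8, because both stand head to head with another gene in GENCODE 29. The sequences are RefSeq's, build GRCh38.p14, plus strand, and end at the last base before the RefSeq start of the gene. RefSeq promoter entries matched 4 of the 5 members (RAB39B did not). The RAB39A window is chr11:107928294-107928447 and the SMCR8 window is chr17:18315043-18315292. Capitals mark matches to the GC box, GGGCGG, on either strand.
RAB39A: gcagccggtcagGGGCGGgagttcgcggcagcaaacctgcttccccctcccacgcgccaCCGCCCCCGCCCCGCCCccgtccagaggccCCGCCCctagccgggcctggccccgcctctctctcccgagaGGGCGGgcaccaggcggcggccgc
SMCR8: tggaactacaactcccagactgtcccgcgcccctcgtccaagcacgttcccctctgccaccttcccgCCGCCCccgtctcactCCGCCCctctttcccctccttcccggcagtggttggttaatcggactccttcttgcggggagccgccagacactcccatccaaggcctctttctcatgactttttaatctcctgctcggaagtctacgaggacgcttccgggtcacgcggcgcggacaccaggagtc

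The RAB39A window of 154 bases was 80.5% G or C, with 18 CpG and 6 GC box matches, which can share a base. The SMCR8 window of 250 bases was 62.4% G or C, with 20 CpG and 2 GC box matches. A GC box stood in 37.1% of all 35116 RefSeq promoters over the same 154 bases before the start and in 42.6% over 250 bases. The CCAAT box (CCAAT), the TATA box (TATAAA) and the E-box CACGTG had 0 matches in either window, on both strands. They stood in 23.9%, 6.84% and 4.64% of all promoters over 154 bases, and in 32.0%, 10.7% and 6.34% over 250 bases. These matches describe letters only. On the other side of the RAB39A window, SLC35F2, a solute carrier that GENCODE 29 starts 0.2 kb away and RefSeq starts 69.7 kb away, had 10.8 and 11.6 FPKM at 30 Gy and 7.65 and 7.94 FPKM at 0 Gy and rose (log2 difference 0.47 ± 0.07 SE, limma adjusted p = 0.0161).

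C9orf72 (ENSG00000147894, 9:27546545-27573866, minus strand), the DENN-domain subunit that gives the complex its name, had 1.97 and 2.38 FPKM at 30 Gy and 2.30 and 2.09 FPKM at 0 Gy. The 0 Gy values lie inside the range of the 30 Gy values. The difference was -0.01 ± 0.12 on the log2(FPKM + 1) scale (SE, 95% interval -0.32 to 0.30, limma adjusted p = 0.961), and its sign changed when replicate 1 was left out at 30 Gy (0.084) or at 0 Gy (0.036). The interval leaves out a fall as large as that of RAB39B. Smaller changes in either direction were not resolved with 2 libraries per dose and 199 to 253 reads per library. GENCODE 29 lists 8 transcripts of C9orf72, and the deposited table gives 1 value for the gene, so a shift between its alternative first exons would not show.

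SMCR8 (ENSG00000176994, 17:18315310-18328055, plus strand), the second DENN-domain subunit and the partner that stabilises C9orf72, had 7.13 and 6.59 FPKM at 30 Gy and 7.07 and 7.94 FPKM at 0 Gy. The groups overlapped, since the first library of each dose had almost the same level. The log2 difference was -0.11 ± 0.09 (SE, 95% interval -0.34 to 0.11, limma adjusted p = 0.406). SMCR8 shares 196 exonic bases with SHMT1 on the opposite strand, and whether reads were counted by strand is not given in the sources used here. SHMT1, the cytosolic serine hydroxymethyltransferase, averaged 5.63 ± 0.0470 FPKM at 30 Gy and 3.87 ± 0.110 FPKM at 0 Gy (SD, n = 2 each) and rose by 0.44 ± 0.07 (SE, adjusted p = 0.0208). The part of these shared bases in the SMCR8 value was not tested.

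WDR41 (ENSG00000164253, 5:77425970-77620611, minus strand), the WD-repeat subunit that ties the complex to lysosomes, had 9.94 and 9.65 FPKM at 30 Gy and 8.22 and 8.49 FPKM at 0 Gy. Both 30 Gy libraries lay above both 0 Gy libraries. The means were 9.79 ± 0.203 FPKM at 30 Gy and 8.36 ± 0.196 FPKM at 0 Gy (SD, n = 2 each), a ratio of 1.17. The log2 difference of 0.21 ± 0.07 (SE, 95% interval 0.04 to 0.38) did not pass (limma adjusted p = 0.0902). WDR41 shares 383 exonic bases with the phosphodiesterase gene PDE8B on the other strand, which stood at 0.334 and 0.516 FPKM at 30 Gy and 0.521 and 0.602 FPKM at 0 Gy, far below WDR41.

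The order of the levels, in FPKM, was WDR41, then SMCR8, then C9orf72 and RAB39B, then RAB39A at 0. In the 30 Gy libraries C9orf72 stood above RAB39B, and in the 0 Gy libraries RAB39B stood above C9orf72, although their counting intervals overlapped in replicate 1 (2.02 to 2.82 FPKM for RAB39B and 2.02 to 2.60 FPKM for C9orf72). WDR41 stood above SMCR8 in every library, but their intervals overlapped in replicate 2 at 0 Gy (7.99 to 9.03 FPKM for WDR41 and 7.48 to 8.42 FPKM for SMCR8). The ratio of RAB39B to C9orf72 was 0.590 and 0.407 at 30 Gy and 1.04 and 1.35 at 0 Gy. The ratio of RAB39B to SMCR8 was 0.163 and 0.147 at 30 Gy and 0.339 and 0.355 at 0 Gy. Within the complex, the ratio of C9orf72 to SMCR8 was 0.276 and 0.362 at 30 Gy and 0.325 and 0.263 at 0 Gy, so the doses overlapped for this ratio. They also overlapped, narrowly, for C9orf72 to WDR41 (0.198 and 0.247 at 30 Gy, 0.279 and 0.246 at 0 Gy). The ratio of SMCR8 to WDR41 did not overlap, with 0.718 and 0.683 at 30 Gy and 0.860 and 0.934 at 0 Gy. These ratios restate the FPKM within each library and carry no test of their own.

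Among 63 protein-coding RAB genes in the table, 43 had a higher mean FPKM than RAB39B at 30 Gy and 38 at 0 Gy. Of the 46 that were tested 1 rose and 5 fell, RAB39B among them, beside 10.8% and 9.06% of all tested genes. RAB7B, a GTPase of the route from endosomes to the Golgi (singled out after its values were seen), was the 1 tested RAB gene with a larger absolute log2 difference than RAB39B. RAB7B had 0.833 and 0.750 FPKM at 30 Gy and 2.76 and 2.14 FPKM at 0 Gy. It passed the filter on low values only through the 0 Gy libraries, which favours a fall. RAB genes short of the filter were not ranked. By the ratio of means some differed more than RAB39B, such as RAB3B (5.21-fold higher at 30 Gy) and RAB9B (3.04-fold lower, on 7 to 29 reads per library).

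The genes around the complex were taken as 6 lists with 60 members in the table, of which 52 were tested. In all, 5 rose and 8 fell, and 39 did not pass, beside 19.8% of all tested genes that were called. The median log2 difference was 0.01, beside -0.00068 over all tested genes. The count of 13 called genes was 2 without either 30 Gy library, 3 when every gene above 0 was tested, 5 with a replicate block and 6 without the mean-variance trend. Without either 0 Gy library limma called 0 genes in the lists and 0 in the whole table, where 3422 and 3460 genes had an unadjusted p under 0.05 and voom called 1561 and 1650 (in the lists 11 and 15 unadjusted, and 7 and 8 by voom). With the filter applied again to the remaining libraries, limma called 592 and 623 genes in the whole table and 1 in the lists each time. By voom without a 30 Gy library the counts were 3444 and 3456 in the whole table and 17 and 15 in the lists. The replicate block ended the calls on UBQLN2, PQLC2, RB1CC1, ARF6, DENND6A, DENND4B, AVL9 and UACA (adjusted p between 0.0503 and 0.0704).

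Of 10 tested partners, kinases and recruiters of the complex, 2 rose and 3 fell (19.8% of all tested genes were called), with a median log2 difference of -0.01. SQSTM1, the autophagy cargo receptor p62, had 120.3 and 113 FPKM at 30 Gy and 231 and 234 FPKM at 0 Gy, a log2 difference of -0.99 ± 0.06 (SE, limma adjusted p = 0.00232). It was the largest difference of the 52 genes, and it still passed when either 30 Gy library was left out (adjusted p = 0.0226 and 0.0231). OPTN, the cargo receptor optineurin, rose, with 20.8 and 21.5 FPKM at 30 Gy and 15.1 and 14.6 FPKM at 0 Gy (0.48 ± 0.06 SE, adjusted p = 0.0113). PQLC2, the lysosomal transporter of cationic amino acids to which WDR41 binds, had 9.24 and 8.66 FPKM at 30 Gy and 11.4 and 11.5 FPKM at 0 Gy, and fell by 0.33 on the log2 scale (adjusted p = 0.0331). UBQLN2, the proteasome shuttle ubiquilin 2, fell by 0.38, and RB1CC1, the scaffold FIP200 of the ULK1 kinase complex, rose by 0.32. The kinase TBK1, which phosphorylates SMCR8, differed by 0.04 (95% interval -0.14 to 0.22), and the autophagy kinase ULK1 by -0.06.

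Of 9 tested GTPases that the complex acts on or binds, 2 fell (9.06% of all tested genes fell), with a median log2 difference of 0.03. RAB7A, of late endosomes and lysosomes, had 84.4 and 82.1 FPKM at 30 Gy and 112 and 106 FPKM at 0 Gy (-0.39 ± 0.06 SE, limma adjusted p = 0.0167). ARF6, of the plasma membrane and endosomes, had 43.0 and 45.3 FPKM at 30 Gy and 57.1 and 55.1 FPKM at 0 Gy (-0.34 ± 0.06 SE, adjusted p = 0.0242). RAB8A, the other GTPase proposed as a substrate of exchange by the complex, had 4.57 and 4.72 FPKM at 30 Gy and 3.96 and 4.13 FPKM at 0 Gy. Its difference of 0.16 (95% interval -0.04 to 0.36) did not pass, although the groups did not overlap.

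DENN-domain proteins other than C9orf72 and SMCR8 are the wider family of RAB exchange factors. Of 17 tested (of 21 in the table), 2 rose and 3 fell, beside 19.8% called over all tested genes, with a median log2 difference of -0.01. DENND5A, an exchange factor for RAB39 in biochemical studies, had 11.9 and 11.5 FPKM at 30 Gy and 7.38 and 7.73 FPKM at 0 Gy, and rose by 0.57 ± 0.07 (SE, limma adjusted p = 0.00933). DENND6A rose by 0.28 (adjusted p = 0.0470), while DENND2D, DENND4B and AVL9 fell by 0.35, 0.34 and 0.33 (adjusted p = 0.0296, 0.0458 and 0.0356). With the filter at 0.5 FPKM, DENND6A (0.0591) and DENND4B (0.0618) lost their calls, DENND6A also with median centring (0.0535), and both and AVL9 without the trend (0.0681, 0.0680 and 0.0568). The adjusted p of DENND5A was 0.0514 with replicate 1 at 30 Gy left out.

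The remaining lists held few calls. The folliculin and GATOR1 complexes act on the mTORC1 pathway at lysosomes, and folliculin and its partner are built on DENN-domain folds like C9orf72 and SMCR8. Of 5 tested genes of these complexes 0 passed, and FNIP1 and FNIP2, the folliculin-interacting proteins, had the largest differences, both -0.21 (95% intervals -0.45 to 0.04 and -0.54 to 0.12). Of 6 tested RAB GTPases related to RAB39, 0 passed, and the largest differences were those of RAB2A (0.21, 95% interval -0.03 to 0.45) and RAB42 (0.16, -0.16 to 0.47). In either list 0 genes had an unadjusted limma p under 0.05 in the main fit, and voom on the recovered reads also called 0 in each. By voom, 2 folliculin and GATOR1 genes and 1 related RAB had an unadjusted p under 0.05. Voom with the replicate block called FNIP1 (-0.25, adjusted p = 0.0329). Of 5 tested effectors and partners of RAB39 proteins, 1 rose, UACA, a coiled-coil protein that binds RAB39A (0.30 ± 0.07 SE, adjusted p = 0.0424, and 0.0530 with the filter at 0.5 FPKM), and the others, PICK1, CASP1, BECN1 and PIK3C3, did not pass.

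**Figure D3:**
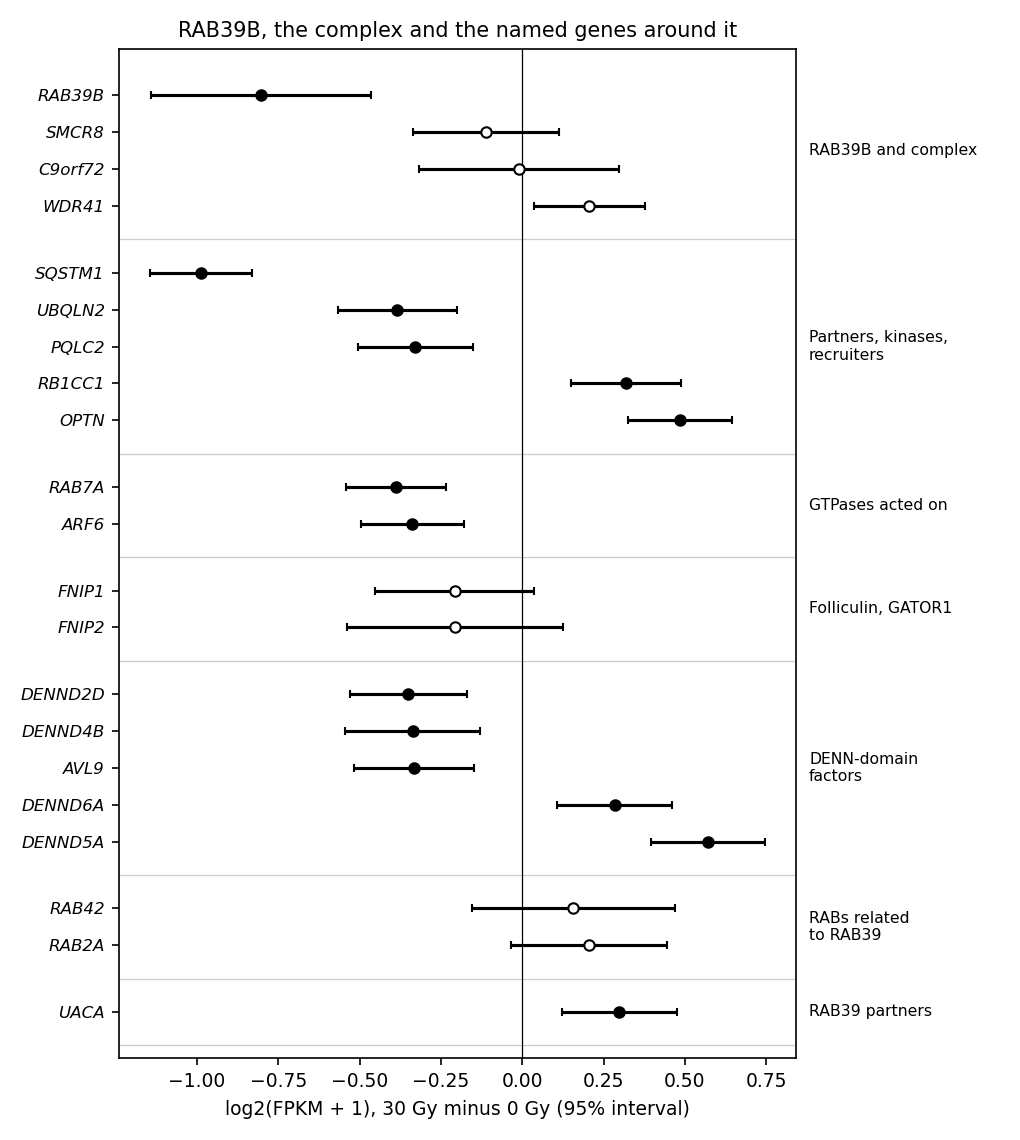
Difference in log2(FPKM + 1), 30 Gy minus 0 Gy, with 95% intervals, for the 4 tested members and the genes named by rule in each of the 6 lists. Filled points passed limma's adjusted p under 0.05 and open points did not. RAB39B (-0.80) and SQSTM1 (-0.99) lie farthest to the left, and DENND5A (0.57) and OPTN (0.48) farthest to the right.

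On the X chromosome, the gene next to RAB39B on its upstream side fell as well. CLIC2, a chloride intracellular channel protein on the same strand, ends 11.6 kb before the RAB39B start. It had 2.71 and 3.25 FPKM at 30 Gy and 4.997 and 5.45 FPKM at 0 Gy, with no overlap between the groups. The log2 difference was -0.65 ± 0.10 (SE, limma adjusted p = 0.0188). As for RAB39B and every other gene called in the main fit, this call was lost by limma when either 0 Gy library was left out. It was also lost with replicate 1 at 30 Gy left out. The CLIC2 difference stayed between -0.74 and -0.55 with a library left out.

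No other neighbour of RAB39B was called lower. VBP1, a prefoldin subunit 18.4 kb beyond the other end of RAB39B, averaged 115 ± 5.17 FPKM at 30 Gy and 95.2 ± 1.17 FPKM at 0 Gy (SD, n = 2 each) and rose by 0.27 (adjusted p = 0.0393). That call was lost with quantile normalization (0.19, adjusted p = 0.0890), without the trend (0.0786), with the replicate block (0.0715), when every gene above 0 was tested (0.112) and with any library left out (0.0862 to 0.172). The deubiquitinase gene BRCC3 (0.01) and MTCP1 (-0.17) overlapped between the doses, as did F8A2 (0.35) and F8A3 (0.18), near-identical copies between which the split of reads is uncertain. Among the 6 nearest tested genes of each other member, 3 rose around RAB39A, 2 around C9orf72 and 3 around WDR41, beside 10.8% of all tested genes that rose, and the remainder did not pass. The genes called near C9orf72, DDX58 and TOPORS, lie 4882 and 4967 kb from it. Around SMCR8 0 passed, with 1 at an unadjusted limma p under 0.05 and 1 called by voom. The head-to-head neighbour of SMCR8, the topoisomerase gene TOP3A, differed by 0.12 ± 0.09 (SE, adjusted p = 0.407), beside -0.11 for SMCR8.

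**Figure D4:**
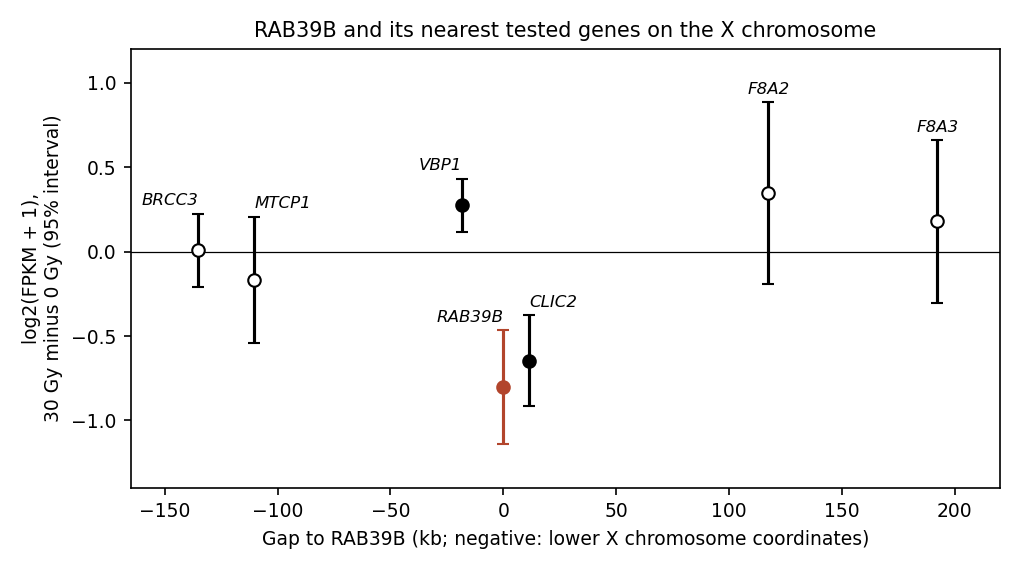
Difference in log2(FPKM + 1), 30 Gy minus 0 Gy, with 95% intervals, for RAB39B (red) and its 6 nearest tested genes, against the gap between gene ends in kb. Filled points passed limma's adjusted p under 0.05. RAB39B (-0.80) and CLIC2 (-0.65, 11.6 kb away) lie below 0, VBP1 (0.27) lies above it, and the intervals of the other 4 span 0.

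The genes whose pattern was most like that of RAB39B were found by the root mean square difference between centred log2(FPKM + 1) values over the 4 libraries, among 11124 protein-coding genes. They were MYO5B, a myosin motor (0.0374), PLEKHH1 (0.0381), PER3, a circadian clock gene (0.0411), INPP5D, an inositol phosphatase (0.0452), and SLC9A5, a sodium-proton exchanger (0.0459). The median over all genes compared was 0.417. MYO5B had 1.95 and 1.56 FPKM at 30 Gy and 3.67 and 3.98 FPKM at 0 Gy. PLEKHH1 had 0.620 and 0.442 FPKM at 30 Gy and 1.42 and 1.67 FPKM at 0 Gy. Like RAB7B, PLEKHH1 passed the filter only through the 0 Gy libraries, which favours a fall. With 4 libraries in 2 groups, likeness of this kind is mostly a shared difference between doses of like size.

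Depth ran from 15920861 to 15979341 recovered reads at 30 Gy and from 16773381 to 17261121 at 0 Gy, and replicates of a dose differed by more than sampling noise (mean chi-square per gene 5.68 at 30 Gy and 6.31 at 0 Gy). The labelled squamous identity was checked against 15 squamous and epithelial markers. TP63, the squamous lineage factor, was present (3.34 and 3.19 FPKM at 30 Gy and 3.95 and 4.14 FPKM at 0 Gy), while KRT5, KRT6A, KRT6B and DSG3 were at 0 reads in all 4 libraries, and 8 of the 15 were under 1 FPKM throughout. Within this list KRT7 averaged 211 ± 14.2 FPKM at 30 Gy and 95.8 ± 0.615 FPKM at 0 Gy and rose (limma adjusted p = 0.00232), and KRT19 averaged 88.4 ± 6.18 FPKM at 30 Gy and 162 ± 4.27 FPKM at 0 Gy and fell (adjusted p = 0.00424, SD, n = 2 each). Of 14 markers of blood, vessel, fibroblast, alveolar and neuroendocrine cells, 11 were under 1 FPKM in all libraries, and CD3E and SFTPC among these were at 0. COL1A1, PDGFRB and ACTA2 reached 1 FPKM in at least 1 library. The summed level of all 14 markers was 79.6 and 71.97 FPKM at 30 Gy and 63.6 and 63.7 FPKM at 0 Gy, nearly all of it COL1A1. COL3A1, the other collagen of the list, had only 0.0368 and 0.0554 FPKM at 30 Gy and 0.00844 and 0.00864 FPKM at 0 Gy. The part of such cells in the results was not tested.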

How the data were processed

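Gene-level FPKM from 4 libraries, 2 at 30 Gy and 2 at 0 Gy, were deposited by the authors as 1 table, and libraries were grouped by name. Per the submitters' processing notes the genome was hg38. Aligner, counter and annotation were not given in the sources used here. Positions of the 5 genes matched GENCODE 29. FPKM times gene length was a whole multiple of 1 step per library for 100% of values above 0 (relative tolerance 0.001), which recovered reads and depth. Genes with FPKM of at least 1 in 2 or more libraries were tested with limma 3.58.1 (R 4.3.3), by lmFit and trended eBayes on log2(FPKM + 1), two-sided and without covariates, with Benjamini-Hochberg adjustment over 13379 genes (2 residual and 2.98 prior degrees of freedom). A permutation of 2 against 2 libraries cannot give p under 0.333. The method was also run on simulated reads, drawn with the same spread setting for every gene, and no result given here rests on that run.

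The members, lists and tests were chosen with earlier results of these data known. Named were the 5 members, called genes of each list (at most 6; the 2 largest differences where none passed), neighbours, overlapping genes and the 5 genes most like RAB39B. Alternatives were other pseudocounts, filters, scalings and eBayes settings, a replicate block, voom on recovered reads and leaving out each library. Leaving out a library with the filter applied again, or with voom, was chosen after seeing the data.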

Additional observations from a re-analysis of the deposited data

How the results depend on the processing

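The fall of RAB39B kept its sign in every alternative run. Its log2 difference was -0.80 without a call when every gene above 0 was tested, and -0.89 to -0.72 with a library left out, also without a call in the 4 such fits on fixed genes; applying the filter again restored it without the first 30 Gy library (adjusted p = 0.0424) but not without the second (-0.74, adjusted p = 0.0529) or either 0 Gy library (-0.89 and -0.72, adjusted p = 0.0756 and 0.105). The differences of SMCR8 and WDR41 kept their sign and stayed short of the threshold in every alternative. C9orf72 stayed uncalled, but changed sign without the first 30 Gy library (0.084 with either filter, and 0.098 by voom) and the first 0 Gy library (0.036 with either filter, and 0.031 by voom), giving -0.10 to 0.084 over the 4 libraries left out. The number of called genes was 604 with every gene above 0, 4227 with voom and 4405 with voom and a replicate block, against 2654. It was 0 to 898 with a library left out, 1317 and 1411 (without a 30 Gy library) or 592 and 623 (without a 0 Gy library) with the filter applied again, and by voom 1561 and 1650 without a 0 Gy library and 3444 and 3456 without a 30 Gy library. Of the 13 calls in the lists around the complex, the count was 3 with every gene above 0, 6 without trend, 5 with the replicate block, 0 to 2 with a library left out, 1 to 3 with the filter applied again, and by voom 7 and 8 without a 0 Gy library and 17 and 15 without a 30 Gy library. The neighbour BRCC3 changed sign with median centring (-0.0085), quantile normalization (-0.013), voom (-0.0064, and -0.0088 with the block) and without a library (-0.085 and -0.015, range -0.085 to 0.10), and MTCP1 without the second 30 Gy library (0.0014, range -0.34 to 0.0014). Whether the replicate numbers pair the samples is not stated in the labels. Across genes, same-numbered deviations of the doses had a correlation of -0.0263, which cannot settle how the samples were paired. The block lowered the called genes to 1926, and RAB39B kept its call (limma adjusted p = 0.0454). In other single genes named, 157 of 532 comparisons with an alternative lost a call, 1 gained one, and the causes were not tested. Depth limits RAB39A. Changes of C9orf72 smaller than its interval were not resolved, and the parts of depth and replicate spread in that interval were not tested.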
